A study of Mus musculus with 8 samples.

Results

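Oxidative phosphorylation (OXPHOS) is carried out by 5 protein complexes of the inner mitochondrial membrane. Complexes I (NADH dehydrogenase), II (succinate dehydrogenase), III (cytochrome bc1) and IV (cytochrome c oxidase) pass electrons from nutrients to oxygen, complexes I, III and IV pump protons, and complex V (ATP synthase) uses the proton gradient to make ATP. Nearly all subunits are encoded in the nucleus, a small core is encoded by mitochondrial DNA, and several subunits have isoforms restricted to muscle, testis or low oxygen. In the small intestine, absorptive enterocytes and crypt stem cells are rich in mitochondria, and oxidative metabolism is known to differ between crypt and villus.

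The nuclear-encoded OXPHOS genes were examined in small intestinal epithelial cells (IECs) of mice lacking CD1d, the antigen-presenting molecule that displays lipids to natural killer T (NKT) cells. Genes were chosen by name: every row of the count table beginning with Nduf, Uqcr, Atp5 or Cox4 to Cox8, together with Sdha, Sdhb, Sdhc and Sdhd. This gave 97 of the 25239 genes listed. Of these, 36 encoded complex I subunits, 8 complex I assembly factors (Ndufaf genes, which help build the complex and are not part of it), 4 complex II, 8 complex III, 20 complex IV and 17 complex V, and 4 were second copies or pseudogenes. No mitochondrially encoded subunit was listed in the table.

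Bulk RNA-seq libraries came from 4 CD1d-KO mice (genotype CD1d1/2 KO, a germline loss, so that NKT cells are missing from the animal as well as CD1d from the epithelium) and 4 wild-type (WT) mice. The labels give C57BL/6Jax for WT, and the study's resource list names C57BL/6J and the CD1d-KO line as separate strains. By its methods the mice were 7 to 10 weeks old and of both sexes matched between genotypes, and none was treated for this comparison. The study names as a limit that its mice were not littermates, which may affect their gut microbiota. IECs were isolated from crypts of the proximal small intestine and sorted as EpCAM+ cells negative for CD45, CD31 and Ter119. Library totals were 23610266 to 31629435 counts, and the 97 genes held 1.83% to 2.05% of the counts of a library.

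The targeted gene Cd1d1 gave 8, 3, 5 and 0 raw counts in the CD1d-KO samples, WT gave 81, 70, 94 and 50, and the difference was -4.34 ± 0.45 (SE) on the log2 scale. All 12 general epithelial markers examined were detected, with summed normalised counts of 393544 to 421146 in CD1d-KO and 386037 to 424558 in WT. CD1d-KO samples 1 and 2 held Y-linked transcripts and the other 6 samples did not, which goes against the matching of sexes that the methods state and leaves 2 CD1d-KO against 4 WT among the samples without them. Gastric markers were lower in CD1d-KO, where 6 of 16 tested were called lower and 1 higher, with a median log2 fold change of -4.386. Their summed level was 4045 to 7231 against 7474 to 23412 in WT, and Onecut2 was the most abundant gene of that list. Leukocyte markers were lower too, with 5 of 14 called lower by DESeq2 and 0 of 8 by edgeR. They summed to 827 to 975 against 1044 to 2341 in WT. The leukocyte score was 2.092 in WT sample 1 and -0.365 in WT sample 4, beside -0.431 in CD1d-KO sample 4. No marker of either list was at 0 in all samples. Their part in the values below was not tested, and fits with a gastric score as covariate and without the Y-linked samples were run for every gene and complex and some of their values are given beside the results.

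The levels of the OXPHOS genes were compared first, per exon length, as TPM (counts per exon length, scaled to the same sum in each sample), since counts of genes of different length cannot be compared. By the median of all their genes, complexes V, IV, III, II and I stood at 692, 617, 615, 585 and 265 TPM over all 8 samples. The 20 genes of complex IV include 8 tissue isoforms with a median of 0.136 TPM, which pull its median down. The place of complex IV in this order therefore depends on counting them. The medians of complexes II to V lay within the range of levels inside each of complexes III, IV and V. Assembly factors lay lower, at a median of 30.9 TPM and between 11.4 (Ndufaf5) and 72.9 TPM (Ndufaf8). The highest level was that of Atp5b, the catalytic beta subunit of ATP synthase, at 3283 TPM (3146 to 3533 over samples). It was followed by Atp5a1, the alpha subunit with which it forms the catalytic head, at 2169 TPM (2035 to 2318).

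**Figure D1:**
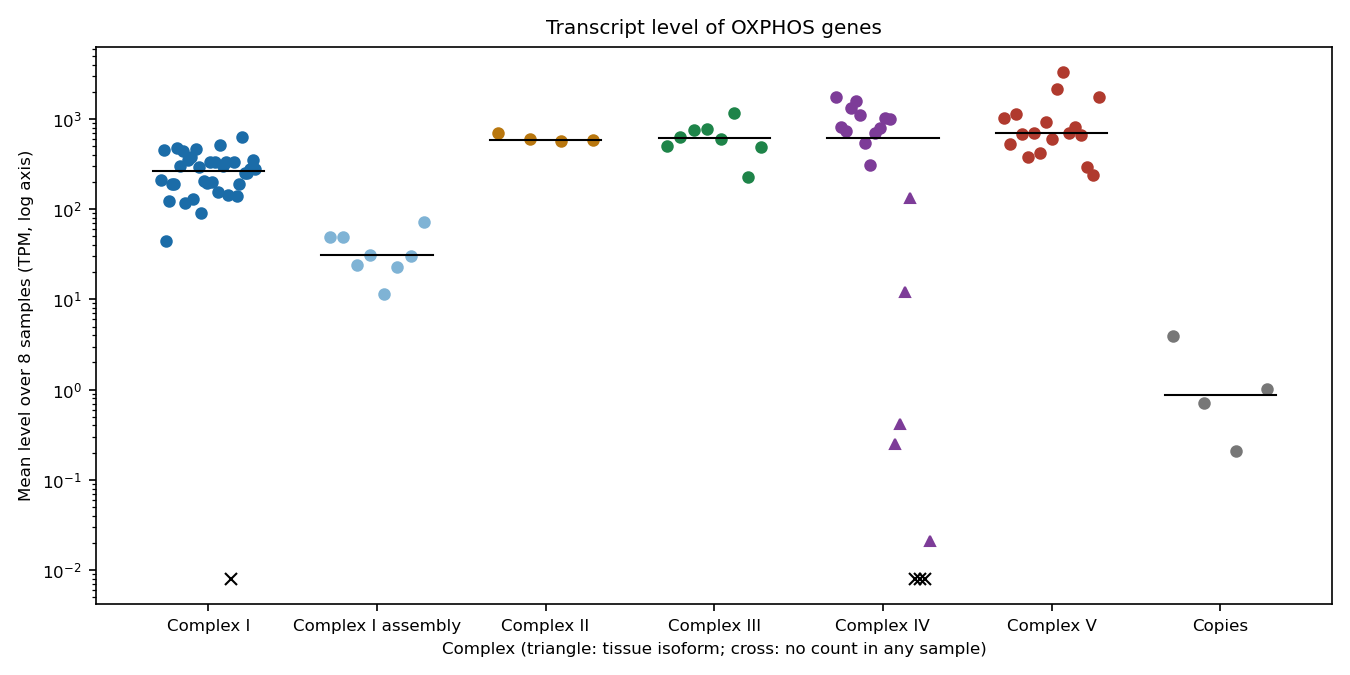
Mean level of each OXPHOS gene over the 8 samples (TPM, log axis) by complex, with the median of each group as a line. Triangles are tissue isoforms and crosses, drawn at the foot of the axis, are genes with no count in any sample. Atp5b stood highest at 3283 TPM, and the assembly factors lay between 11.4 and 72.9 TPM.

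In complex III the highest level was that of Uqcrh, the hinge protein, at 1171 TPM (1076 to 1266 over samples). In complex IV it was that of Cox4i1, the broadly used isoform of subunit 4, at 1744 TPM (1583 to 1844). The 4 subunits of complex II stood close together, from 568 TPM for Sdhc to 704 TPM for Sdha, and the ranges of Sdhb (563 to 626), Sdhc (539 to 618) and Sdhd (496 to 627) over samples overlapped.

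Isoform pairs of complex IV were unequal in these cells. Cox4i2, induced by low oxygen, had a level of 0.252 TPM, Cox6a2 of heart and skeletal muscle 0.417 TPM and Cox6b2 of testis 12.1 TPM, against 1744, 1324 and 1595 TPM for Cox4i1, Cox6a1 and Cox6b1. Cox7b2, Cox8b and Cox8c, isoforms of testis or muscle, had no count in any sample out of 231341078 counts in all, which leaves room for up to 3 counts. Ndufa4l2, the low-oxygen relative of the complex IV subunit Ndufa4, had 2 samples with 1 count each.

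Subunit 7a was the exception among these families. Cox7a1, described as the heart and skeletal muscle isoform, made up 13.5% of the level of its family, beside 55.3% for Cox7a2 and 31.1% for Cox7a2l, which takes part in supercomplex assembly. Its normalised counts stood at 489, 458, 697 and 685 in CD1d-KO samples 1 to 4 and 473, 734, 622 and 556 in WT samples 1 to 4. The groups overlapped and both held high and low samples (582 ± 126 in CD1d-KO and 596 ± 110 in WT, SD, n = 4). Of 17 markers of stroma, endothelium, erythroid cells and muscle, 4 passed the filter on low counts, their summed level was 139 to 199 in CD1d-KO and 125 to 173 in WT, and the muscle marker Ckm was at 0 in all samples.

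The c-ring of ATP synthase, through which protons flow, is made of 1 protein that is encoded by 3 genes. Atp5g3 gave 76.8% of the summed level, Atp5g1 12.8% and Atp5g2 10.5%. The share of Atp5g1 was 12.2%, 11.4%, 12.4% and 12.4% in CD1d-KO samples 1 to 4 and 13.6%, 13.1%, 13.8% and 13.2% in WT samples 1 to 4. All CD1d-KO shares lay below all WT shares, and those of Atp5g3 lay above them (76.4% to 78.4% against 75.6% to 76.2%). Shares of one whole move against each other, so these separations are not independent observations. The normalised counts of Atp5g1 overlapped between the groups, at 2546 to 3114 in CD1d-KO and 3060 to 3374 in WT. Their log2 fold change was -0.2 ± 0.08 (SE, DESeq2 adjusted p = 0.12). No test was run on these shares.

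The CD1d-KO and WT samples were then compared gene by gene with DESeq2 over all genes. No OXPHOS gene was called at an adjusted p under 0.05, 0 of 89 tested, against 4.03% of all 15446 genes tested (255 or 1.65% higher and 367 or 2.38% lower in CD1d-KO). edgeR called 0 of 88 as well, against 1.66% of all genes. By sign, 60 of the 89 were lower in CD1d-KO and 29 higher, and the median log2 fold change was -0.044, beside 0.001 for all genes tested. That median turned to 0.04 without the Y-linked samples and to 0.009 with the gastric score. At an unadjusted p under 0.05 there were 15, all of them lower, out of 89, where 8.19% of all genes were lower and 7.07% higher at that level (edgeR also gave 15). In bulk RNA, fewer cells of a type and less RNA per cell cannot be told apart.

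For 56 of the 89 genes (62.9%) the 95% interval of the fold change lay within 1.2-fold in either direction, as it did for 33.3% of all genes tested and for 51.1% of those with a mean of 200 or more normalised counts. Fold changes of the 86 genes with a mean of at least 50 ran from -0.29 for Atp5e to 0.14 for Ndufaf5 on the log2 scale. The other 3 tested genes, Cox6a2, Cox7c-ps1 and Ndufs5-ps, had low counts, with at most 6 raw counts in a sample for Cox6a2. Of the 8 genes without a test, Ndufs5, Cox7b2, Cox8b and Cox8c had no count, and Ndufa11b, Ndufb4c, Ndufa4l2 and Cox4i2 had no more than 11 in a sample. Ndufs5, a subunit of the complex I membrane arm, is listed at 0, its exons overlap those of the Ndufs5-ps row, and pairs that overlap several genes were not counted, so its level is unknown here.

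**Figure D2:**
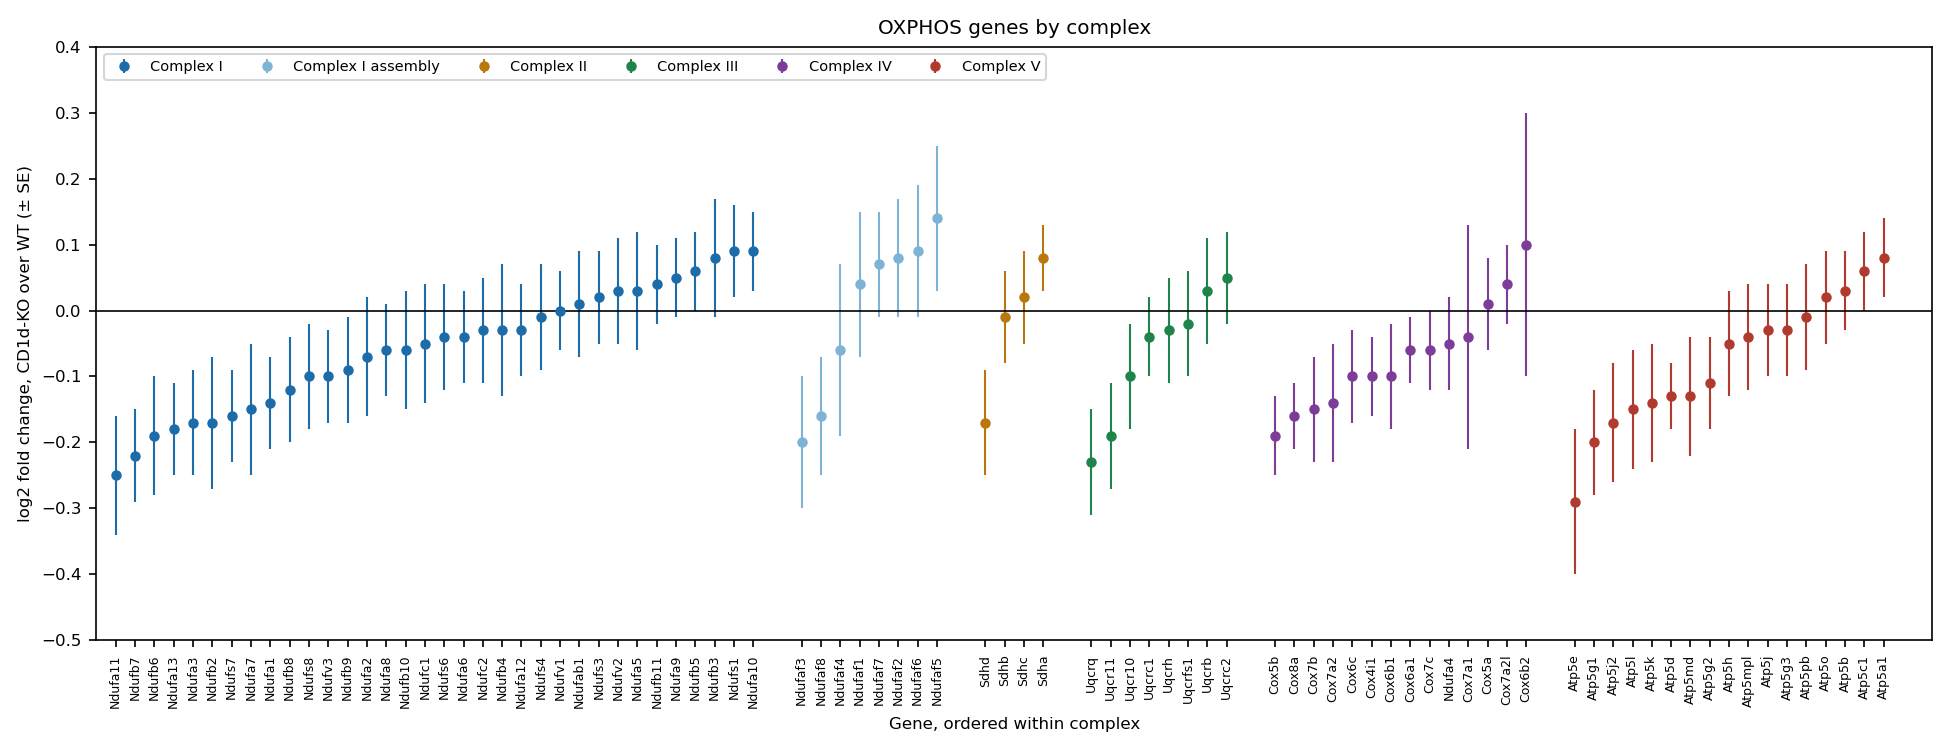
Log2 fold change of CD1d-KO over WT (points) with its SE (bars) for 85 of the 86 OXPHOS genes averaging 50 or more normalised counts, ordered within each complex. Values ran from -0.29 (Atp5e) to 0.14 (Ndufaf5), and no gene was called.

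In complex I, which oxidises NADH, 23 of 35 tested subunits were lower in CD1d-KO and 12 higher, 0 were called by DESeq2 or edgeR and 6 were lower at an unadjusted p under 0.05. The 7 core subunits, which carry the electron path, had a median log2 fold change of 0.023 with 5 higher. The 28 accessory subunits, which surround and stabilise the core, had a median of -0.055 with 21 lower. Without the Y-linked samples the medians were 0.061 for the core and 0.03 for the accessory subunits (0.04 for the complex), and with the gastric score -0.012 and -0.004 (-0.005). Among the 8 assembly factors 5 were higher and 3 lower, with a median of 0.055 (0.115 without the Y-linked samples and 0.006 with the gastric score), and none had an unadjusted p under 0.05.

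Ndufa11, an accessory subunit of the membrane arm (mm10 chromosome 17, 56717762 to 56724248, plus strand), had the lowest fold change of complex I. Its normalised counts stood at 1289, 1194, 1255 and 1462 in CD1d-KO samples 1 to 4 and 1414, 1672, 1536 and 1559 in WT samples 1 to 4. CD1d-KO samples 1 to 3 lay below every WT sample and CD1d-KO sample 4 above WT sample 1. On the log2 scale the difference was -0.25 ± 0.09 (SE), with an adjusted p of 0.0732 by DESeq2. It was called without CD1d-KO sample 4 (-0.31, adjusted p = 0.0102) or without WT sample 1 (-0.29, adjusted p = 0.0464), and was at -0.18 without the Y-linked samples (adjusted p = 0.568) and -0.05 with the gastric score (adjusted p = 0.972).

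Ndufb7, another accessory subunit of the membrane arm (chromosome 8, 83566758 to 83571623, plus strand), was singled out after its values were seen, as the gene nearest to the threshold. It stood at 1965, 1798, 2088 and 2048 in CD1d-KO samples 1 to 4 and at 2303, 2415, 2153 and 2314 in WT samples 1 to 4. All CD1d-KO samples lay below all WT samples, by -0.22 ± 0.07 on the log2 scale (SE), with an adjusted p of 0.0506 by DESeq2. The adjusted p ranged from 0.0298 to 0.714 over 17 alternative fits, and 5 of them called it. At the upper end of complex I, Ndufs1, the large iron-sulphur core subunit, had 6316, 6677, 7699 and 6703 in CD1d-KO against 6154, 6393, 6529 and 6592 in WT. CD1d-KO sample 3 was the highest and the groups overlapped (log2 fold change 0.09 ± 0.07, adjusted p = 0.595).

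Complex II links the citrate cycle to the respiratory chain and is the only complex with no mitochondrially encoded subunit. Sdha, the flavoprotein that oxidises succinate (chromosome 13, 74322255 to 74350240, minus strand), had 24433, 25565, 24953 and 24547 normalised counts in CD1d-KO samples 1 to 4 and 22035, 23826, 23700 and 24431 in WT samples 1 to 4. It was the 1 OXPHOS gene with all CD1d-KO samples above all WT samples, by 2 normalised counts between the nearest pair, and 4.09% of all genes had groups apart in that direction. The difference was 0.08 ± 0.05 on the log2 scale (adjusted p = 0.47).

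Sdhd, a membrane anchor of complex II, had 7499, 7873, 9196 and 9077 in CD1d-KO against 8745, 9614, 9708 and 9653 in WT. CD1d-KO samples 1 and 2, those with Y-linked transcripts, lay well below the other 6, and the groups overlapped (-0.17 ± 0.08, adjusted p = 0.293, turning to 0.03 with the gastric score in the fit). The iron-sulphur subunit Sdhb (-0.01 ± 0.07, adjusted p = 0.978) and the second anchor Sdhc (0.02 ± 0.07, adjusted p = 0.95) had intervals of -0.14 to 0.12 and -0.12 to 0.16. For Sdhb the sign turned to 0.09 without the Y-linked samples and to 0.08 with the gastric score.

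In complex III, 6 of 8 subunits were lower in CD1d-KO, with a median of -0.034 (0.049 without the Y-linked samples and 0.032 with the gastric score), 0 called by DESeq2 or edgeR and 2 lower at an unadjusted p under 0.05. Uqcrq, a small subunit near the quinone site (chromosome 11, 53427922 to 53430831, minus strand), had 3773, 3372, 4068 and 4203 in CD1d-KO samples 1 to 4 and 4214, 4911, 4347 and 4624 in WT samples 1 to 4. The groups did not overlap (-0.23 ± 0.08, adjusted p = 0.0999), and Uqcrq was called only without CD1d-KO sample 4 (-0.28, adjusted p = 0.0458) among the 17 alternatives. It was at -0.13 without the Y-linked samples (adjusted p = 0.68) and -0.10 with the gastric score (adjusted p = 0.927). Uqcrc2, a large matrix-side subunit, stood at 12806, 13023, 15197 and 14039 in CD1d-KO against 13154, 13037, 13263 and 13710 in WT, where the groups overlapped (0.05 ± 0.07, adjusted p = 0.82). Uqcrh, the hinge protein, had 6907, 6948, 8229 and 8426 in CD1d-KO and 7599 to 8038 in WT. CD1d-KO samples lay on both sides of the WT range (-0.03 ± 0.08, adjusted p = 0.946), and the sign turned to 0.10 without the Y-linked samples and with the gastric score.

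In complex IV, the oxygen-consuming end of the chain, 12 of 15 tested genes were lower in CD1d-KO, with a median of -0.095 (-0.079 without the low-count Cox6a2, 0.016 without the Y-linked samples and 0.009 with the gastric score), 0 called by DESeq2 or edgeR and 2 lower at an unadjusted p under 0.05. Cox5b, a matrix-side subunit that binds zinc (chromosome 1, 36691487 to 36693388, plus strand), had 4557, 4286, 4986 and 4720 in CD1d-KO samples 1 to 4 and 5219, 5542, 5187 and 5248 in WT samples 1 to 4. The groups did not overlap, and the log2 fold change was -0.19 ± 0.06 (adjusted p = 0.0517). Over 17 alternatives its adjusted p ranged from 0.00705 to 0.743, 3 of them called it, and the fold change lay between -0.23 and -0.13. Cox4i1 had 15121, 14139, 16201 and 16366 in CD1d-KO against 16207, 17096, 16311 and 16832 in WT. CD1d-KO samples 1 to 3 lay below every WT sample (-0.10 ± 0.06, adjusted p = 0.441, and -0.03 without the Y-linked samples or -0.01 with the gastric score). The testis isoform Cox6b2 had the highest fold change of the complex, 0.10 ± 0.20 (adjusted p = 0.906), at 70.1 to 120.0 normalised counts in CD1d-KO and 83.1 to 91.2 in WT. Its sign turned to -0.34 with the gastric score.

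In complex V, 13 of 17 genes were lower in CD1d-KO, with a median of -0.050 (0.04 without the Y-linked samples and 0.023 with the gastric score), 0 called by DESeq2 or edgeR and 4 lower at an unadjusted p under 0.05. The 5 subunits of the F1 part, where ATP is made, had a median of 0.03. The 3 c-ring genes had a median of -0.107, the 4 subunits of the peripheral stalk, which holds F1 in place, -0.023, and the 5 small membrane subunits, which shape the dimer, -0.144. All 3 c-ring genes and all 5 small membrane subunits were lower.

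Atp5e, the epsilon subunit of the central stalk (chromosome 2, 174461075 to 174464101, minus strand), had the lowest fold change of the well-counted genes. Its normalised counts stood at 2831, 2449, 2966 and 3651 in CD1d-KO samples 1 to 4 and 3633, 3773, 3466 and 3703 in WT samples 1 to 4. CD1d-KO sample 4 lay within the WT range and the other 3 below it (-0.29 ± 0.11, adjusted p = 0.101). Without CD1d-KO sample 4 the fold change was -0.41 ± 0.08 (adjusted p = 0.000105), without the Y-linked samples it was -0.14 (adjusted p = 0.696), and with the gastric score it was 0.005 (adjusted p = 0.997).

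The catalytic subunits of the same complex had different values. Atp5b had 70989, 72506, 82986 and 73549 in CD1d-KO against 70438, 74790, 73030 and 75593 in WT. Only CD1d-KO sample 3 stood above the WT range (0.03 ± 0.06, adjusted p = 0.906). Atp5a1 had 62833, 65253, 70446 and 62204 in CD1d-KO and 58951 to 64565 in WT, and the groups overlapped (0.08 ± 0.06, adjusted p = 0.592). For both genes the 95% interval excluded a change as large as 1.2-fold.

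By sample, each complex was summarised as a score, the mean over its tested genes of log2(normalised count + 1) after centring each gene on its mean over the 8 samples. Over the 86 genes with a mean of at least 50 the score was -0.092, -0.138, 0.084 and 0.027 in CD1d-KO samples 1 to 4 and 0.000, 0.061, 0.013 and 0.044 in WT samples 1 to 4. CD1d-KO samples 1 and 2 were the lowest of the 8 and CD1d-KO sample 3 the highest, with the WT samples between them. The same order of CD1d-KO samples 1 and 2 below and 3 and 4 above 0 was seen in each of the 5 complexes.

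**Figure D3:**
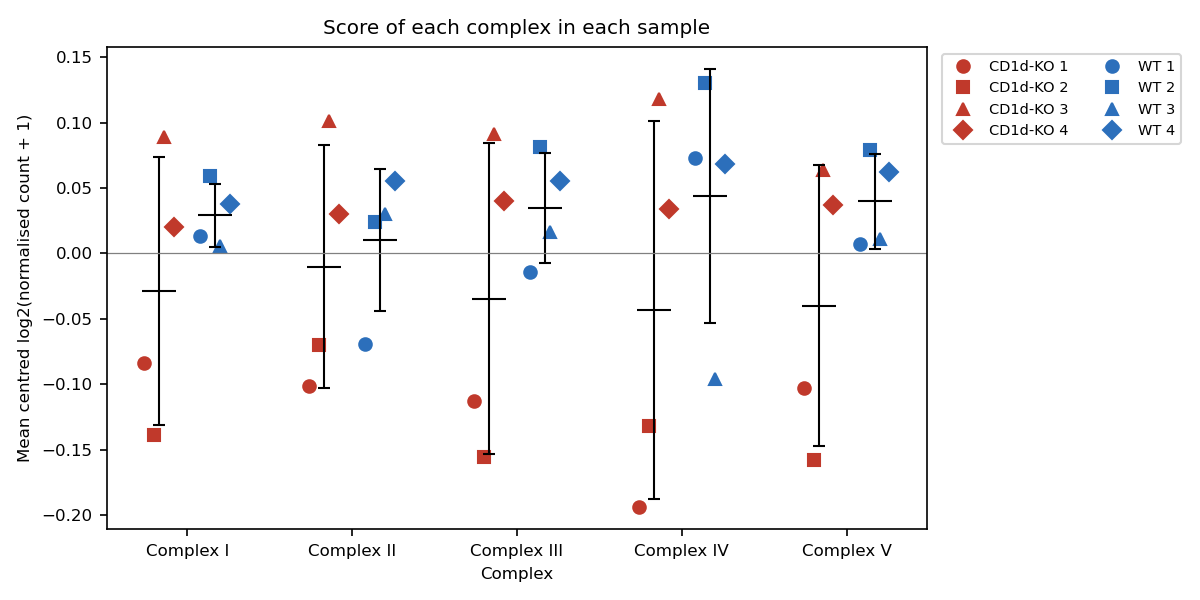
Score of each complex in each sample (mean over tested genes of centred log2(normalised count + 1)), with the mean and SD of each genotype in black (n = 4). CD1d-KO samples 1 and 2 lay below 0 and CD1d-KO samples 3 and 4 above 0 in all 5 complexes, for example -0.084, -0.139, 0.089 and 0.02 in complex I. WT sample 3 in complex IV (-0.096) rests on the low-count Cox6a2 and is 0.027 without it.

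The spread between samples differed by genotype. For the 85 genes with a mean of at least 200, the coefficient of variation had a median of 8.67% in CD1d-KO and 4.09% in WT, beside 7.3% and 6.91% for 9960 other genes of that abundance. No test of this difference was run. The low samples were those with Y-linked transcripts, and among the 6 samples without them 56 of 88 tested OXPHOS genes were higher in CD1d-KO and 32 lower, with a median of 0.04, 0 called by DESeq2 and 3 at an unadjusted p under 0.05, all higher (2.57% of all genes were called there). Sex and mouse cannot be told apart within CD1d-KO. Among other cell-type lists, the enterocyte score was -0.27, 0.08, 0.383 and 0.301 in CD1d-KO samples 1 to 4 and -0.268, 0.061, 0.052 and -0.339 in WT samples 1 to 4, with 1 of 25 markers called (higher). By sign, 23 of these 25 markers were higher in CD1d-KO and 2 lower, with a median log2 fold change of 0.186. Paneth cell markers, of which 5 of 11 were called higher (2 by edgeR), summed to 34332 to 70496 normalised counts in CD1d-KO and 30252 to 40354 in WT, and none was at 0. The part of either list in the OXPHOS values was not tested.

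Calls also turned on single samples. Without CD1d-KO sample 3, which had the highest score, 6 OXPHOS genes were called, all lower (Atp5g1, Cox5b, Cox8a, Ndufa3, Ndufb7 and Uqcr11; log2 fold changes -0.25, -0.23, -0.18, -0.24, -0.25 and -0.23), 71 of 88 were lower and the median was -0.082, where 4.64% of all genes were called. Without CD1d-KO sample 4, 3 of 88 were called (Atp5e, Ndufa11 and Uqcrq), where 4.06% of all genes were called. Without CD1d-KO sample 1 or 2, none was called and the median was -0.02 or -0.007, with 11 or 9 at an unadjusted p under 0.05. In the gene-by-gene comparison of all samples, 6 OXPHOS genes had every CD1d-KO sample below every WT sample (Ndufb7, Uqcr11, Uqcrq, Cox5b, Cox8a and Atp5d), 6.74% of the 89, beside 5.52% of all genes.

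Fold changes were set beside summed exon length. This length sums all exons listed for a gene, so it is not the length of the expressed transcript, which was not measured. Of 54 tested OXPHOS genes with a summed exon length under 1000 bases, 43 were lower in CD1d-KO with a median of -0.063, and of 35 longer ones 17 were lower with a median of 0.000. Without the Y-linked samples these medians were 0.016 and 0.086, and with the gastric score -0.012 and 0.04. Across 86 OXPHOS genes, Spearman's rho between length and log2 fold change was 0.41 (0.34 to 0.46 when a sample was left out and 0.32 without the Y-linked samples). Other genes with a mean of at least 200 also had a lower median when short, -0.040 for 524 genes under 1000 bases (336 lower) and 0.012 for the longer ones, with a rho of 0.08 over 9960 genes. These correlations are across genes of the same libraries, which are not independent replicates, and RNA integrity of each library was not used here.

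**Figure D4:**
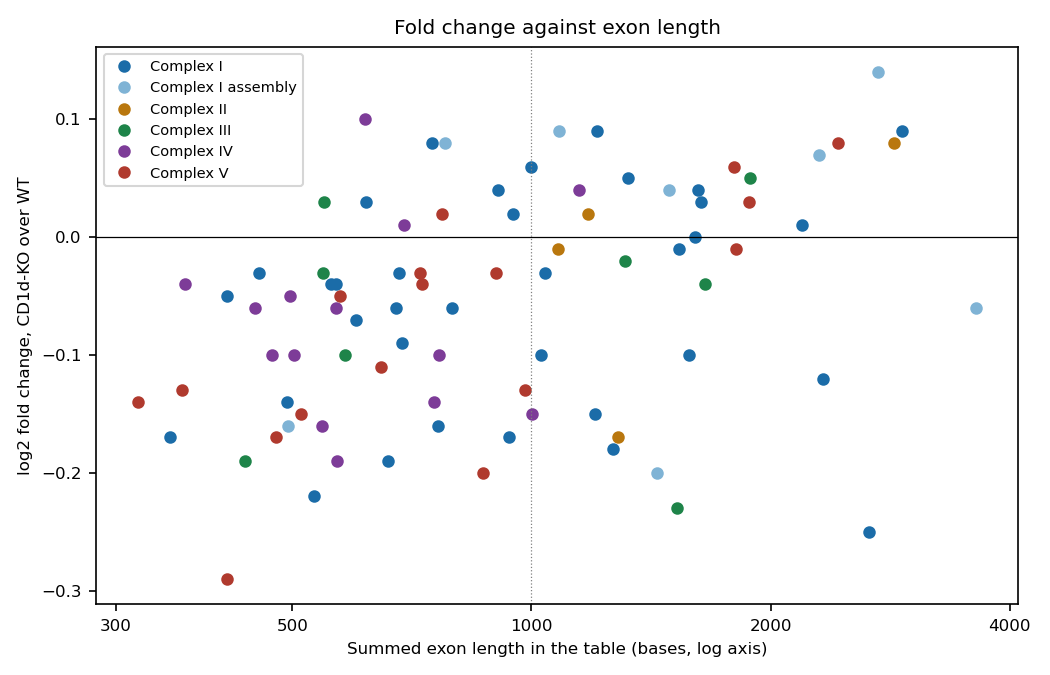
Log2 fold change of CD1d-KO over WT against summed exon length (bases, log axis) for the 86 OXPHOS genes averaging 50 or more normalised counts, coloured by complex, with a dotted line at 1000 bases. Most genes left of the line lay below 0, and Ndufa11 (2661 bases, -0.25) and Uqcrq (1525 bases, -0.23) were the lowest right of it.

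Genes that feed, assemble or regulate the chain were taken from 5 lists of 116 genes, of which 114 were tested and 8 called, 5 higher and 3 lower. Of all genes tested, 4.03% were called (1.65% higher and 2.38% lower). Among 23 regulators of mitochondrial biogenesis, 3 were called lower and none higher, with a median of 0.046. Ppargc1b (PGC-1beta, a coactivator of mitochondrial genes) had 3063, 2999, 2829 and 3012 normalised counts in CD1d-KO samples 1 to 4 and 3308, 3458, 3632 and 4254 in WT samples 1 to 4. The groups did not overlap, and it fell by 0.30 on the log2 scale in CD1d-KO (SE 0.08, DESeq2 adjusted p = 0.0147, called in 13 of 17 alternatives).

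Esrra (ERRalpha, a nuclear receptor that binds OXPHOS promoters with PGC-1 coactivators) had 4064, 3827, 3799 and 4109 in CD1d-KO against 4231, 5023, 4803 and 4563 in WT. All CD1d-KO samples lay below all WT samples (log2 fold change -0.24 ± 0.07, adjusted p = 0.0217, called in 10 of 17 alternatives). Perm1, a further regulator induced by these factors in muscle, had 84.0, 108, 85.0 and 130 in CD1d-KO against 143, 158, 143 and 149 in WT. The groups did not overlap (-0.55 ± 0.17, adjusted p = 0.0463, called in 5 of 17). Other regulators did not pass the test, among them Ppargc1a (PGC-1alpha, -0.05 ± 0.14, adjusted p = 0.941), Nrf1 (0.11 ± 0.08, adjusted p = 0.604) and Tfam, which packages and transcribes mitochondrial DNA (0.15 ± 0.07, adjusted p = 0.222).

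The called genes of the fuel pathways were higher in CD1d-KO. Of 19 genes of the citrate cycle and pyruvate dehydrogenase, 3 were called, all higher, with a median of 0.036. Pdha1, the catalytic subunit of pyruvate dehydrogenase, had 11669, 11804, 11507 and 10933 in CD1d-KO against 9766, 10311, 10102 and 10159 in WT (0.19 ± 0.05, adjusted p = 0.00603). All CD1d-KO samples lay above all WT samples. The same was true of both succinyl-CoA ligase subunits that differ in nucleotide preference, Suclg2 at 5989 to 7080 against 5267 to 5467 (0.25 ± 0.07, adjusted p = 0.00713) and Sucla2 at 5274 to 6151 against 4675 to 5058 (0.21 ± 0.06, adjusted p = 0.0298). Pdha1 lies on chromosome X, and its highest values were in CD1d-KO samples 1 and 2, those with Y-linked transcripts. It was not called without the Y-linked samples. Of 17 alternatives, 11 called Pdha1, 14 called Suclg2 and 8 called Sucla2. Cs, citrate synthase, differed by 0.02 ± 0.06 (adjusted p = 0.946).

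Of 15 other components of the respiratory chain, such as the electron carrier Cycs, cytochrome c1 (Cyc1, a core subunit of complex III that the choice by name left out of its 8 genes) and the enzymes that make coenzyme Q, 1 was called. Etfdh, which passes electrons from fatty acid oxidation to coenzyme Q, had 5262, 5518, 5886 and 5284 in CD1d-KO against 4255, 4964, 4938 and 4588 in WT. All CD1d-KO samples lay above WT (0.23 ± 0.07, adjusted p = 0.0381, called in 8 of 17 alternatives). Cycs (-0.08 ± 0.12, adjusted p = 0.838, turning to 0.12 without the Y-linked samples and 0.17 with the gastric score) and Cyc1 (-0.09 ± 0.06, adjusted p = 0.527) did not pass. Among 13 carriers and channels, Nnt, the proton-driven transhydrogenase that is known to be truncated in C57BL/6J mice, was at 4432 to 4979 in CD1d-KO and 1756 to 1902 in WT (1.36 ± 0.07, adjusted p = 4.12e-90, called in all 17 alternatives).

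**Figure D5:**
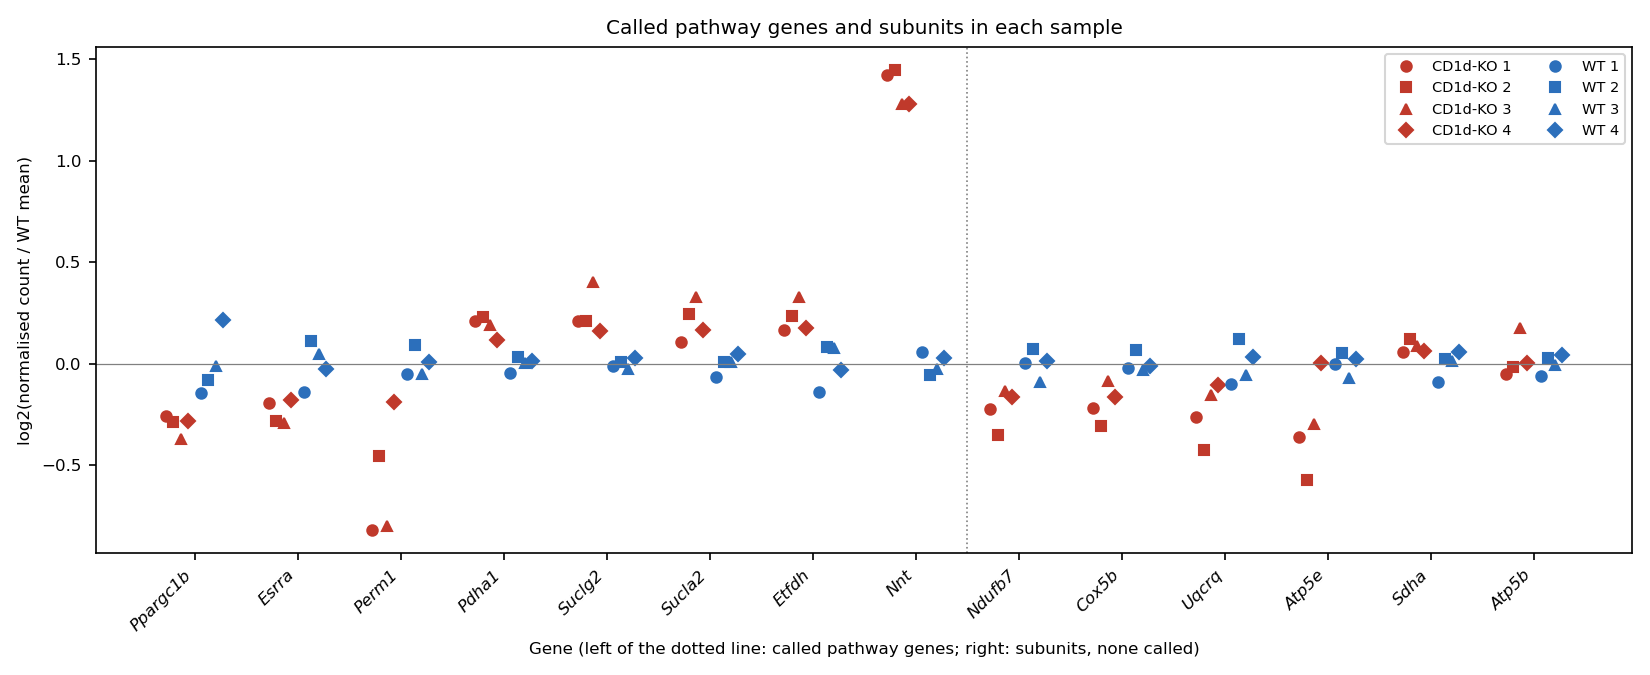
Normalised count of each sample over the WT mean, on the log2 scale, for the 8 called genes of the wider pathway (left of the dotted line) and 6 OXPHOS subunits, none called (right). Nnt was highest in CD1d-KO at 4432 to 4979 normalised counts, Ppargc1b, Esrra and Perm1 lay below every WT sample in all 4 CD1d-KO samples, and Ndufb7 and Cox5b did so without passing the test.

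Except for Nnt, these calls rested on the tool: edgeR called 1 of the 8, where it called 1.66% of all genes. The adjusted p of Ppargc1b, Esrra and Perm1 by edgeR was 0.0764, 0.0906 and 0.123. Without the Y-linked samples Nnt and Suclg2 were called, and Ppargc1b and Esrra were at -0.33 and -0.23 (adjusted p = 0.0761 and 0.207). With the gastric score, Nnt was the 1 gene called, and Ppargc1b, Esrra, Perm1, Pdha1 and Suclg2 were at -0.16, -0.14, -0.19, 0.12 and 0.15.

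Promoter sequences were read from RefSeq (GRCm38.p6) for 65 of 77 subunit genes, as 300-base windows from 250 bases before to 50 after the transcript start, and searched on both strands for exact letters of motifs of factors known to act on OXPHOS genes. AANATGGC (YY1) was found for 17 of the 65 genes (26.2%), against 6.96% of all 27025 genes with a window. CGCATGCG (the centre of the NRF1 site, which reads the same on both strands) was found for 9 (13.8%, against 2.07%), CCGGAAGT (GABPA, an ETS factor) for 5 (7.69%, against 4.31%) and TCAAGGTCA (ESRRA) for 2 (3.08%, against 0.466%). The windows below are those of Sdhd and Atp5g3, the 2 genes with the ESRRA letters, of Ndufa11, with the lowest fold change of complex I and the NRF1 letters, and of Cox8a, which holds the GABPA letters more than once. Motif letters are in capitals, and each window is given 5′ to 3′ on the strand of the gene.
Sdhd (chr9:50603800-50604099, minus strand): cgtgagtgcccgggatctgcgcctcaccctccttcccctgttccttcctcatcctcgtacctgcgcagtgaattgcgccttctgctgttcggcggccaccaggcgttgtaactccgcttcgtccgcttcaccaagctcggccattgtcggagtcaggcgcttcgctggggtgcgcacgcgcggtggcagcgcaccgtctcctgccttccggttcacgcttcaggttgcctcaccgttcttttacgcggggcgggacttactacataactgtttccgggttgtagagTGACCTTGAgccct
Atp5g3 (chr2:73911277-73911576, minus strand): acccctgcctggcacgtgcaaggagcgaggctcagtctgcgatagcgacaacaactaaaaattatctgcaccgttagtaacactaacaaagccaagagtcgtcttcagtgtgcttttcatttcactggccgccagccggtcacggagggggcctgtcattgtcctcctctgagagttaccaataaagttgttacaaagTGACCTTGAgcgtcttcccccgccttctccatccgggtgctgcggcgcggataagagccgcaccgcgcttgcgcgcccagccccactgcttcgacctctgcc
Ndufa11 (chr17:56717512-56717811, plus strand): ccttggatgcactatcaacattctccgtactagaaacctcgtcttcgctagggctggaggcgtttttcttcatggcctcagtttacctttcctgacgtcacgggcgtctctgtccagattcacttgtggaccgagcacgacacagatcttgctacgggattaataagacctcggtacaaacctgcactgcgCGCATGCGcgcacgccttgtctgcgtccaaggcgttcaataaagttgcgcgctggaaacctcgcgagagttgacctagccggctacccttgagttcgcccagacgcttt
Cox8a (chr19:7217567-7217866, minus strand): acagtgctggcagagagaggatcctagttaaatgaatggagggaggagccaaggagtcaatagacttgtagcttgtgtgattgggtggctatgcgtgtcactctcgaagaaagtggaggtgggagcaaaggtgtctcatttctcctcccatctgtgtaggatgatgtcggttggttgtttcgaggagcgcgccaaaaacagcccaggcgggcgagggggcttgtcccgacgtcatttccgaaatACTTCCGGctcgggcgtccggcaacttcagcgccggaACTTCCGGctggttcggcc

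The ESRRA letters stand on the opposite strand in both windows, and the match begins 52 bases before the start of Atp5g3 and 36 after that of Sdhd. The NRF1 letters of Ndufa11 begin 59 bases before its start. In Cox8a the GABPA letters begin 6 bases before and 31 after the start, both on the opposite strand. A match of letters is a description of the sequence, and the binding of any factor was not measured. The log2 fold changes of these genes were -0.17 for Sdhd, -0.03 for Atp5g3, -0.25 for Ndufa11 and -0.16 for Cox8a, none of them called.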

How the data were processed

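Poly(A) RNA-seq was made from sorted epithelial cells of 8 mice, 4 of each genotype. The authors deposited raw fragment counts per gene, with no normalization. Per the file headers, featureCounts 1.6.4 counted read pairs over exons of an mm10 annotation without strand, while the study's methods name HISAT2 and GRCm39. Pairs overlapping several genes were left out, and exons of 14 of the 97 genes overlap another gene (12 of them tested, among them Atp5a1, Ndufs1 and Uqcrc2), so these counts are uncertain. Coordinates are those of the table (mm10).

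Genotypes were compared gene by gene. The main comparison used DESeq2 1.42.0 in R 4.3.3 with a genotype term and its default size factors. Cook's rule left out 4 genes and independent filtering 3638 with means under 2.41, with Benjamini-Hochberg adjustment over 15446 genes and calls at an adjusted p under 0.05. Errors are SE of fold changes and SD of counts. Levels are counts per exon length scaled to a common sum (TPM), where exon length sums all exons listed for a gene and not those of a single transcript. Scores used a pseudocount of 1. The 17 alternatives were edgeR 4.0.16 quasi-likelihood, TMM factors, library totals, size factors without the 50 most abundant genes and OXPHOS genes, a filter of 10 counts in 4 samples, no independent filtering, 8 fits leaving out a sample, the replicate number as a block, the samples without Y-linked counts and a gastric score covariate. Replicates were compared by chi-square per degree of freedom (10.87 to 43.03 over 11720 genes), and none were copies. Fits were tested on simulated data.

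The genes and lists were chosen with earlier results of these data known, and roles were written by hand. Named by rule were called OXPHOS genes, the highest and lowest fold change of each complex at a mean of at least 50, the highest level of each complex, complex II, the isoform families, called pathway genes and Cycs, Cyc1, Cs, Tfam, Nrf1, Esrra, Ppargc1a, Ppargc1b, Nnt and Cd1d1. For 1 gene that this rule names, values are not reported here. Genes called in an alternative were named after their values were seen, as were the low-count genes, the sequences shown and the motifs searched. Library totals of 23610266 to 31629435 set the counting error. The p-values weigh the genotype difference against the spread between mice of the same genotype, estimated over both genotypes. Within CD1d-KO that spread also holds the split by Y-linked transcripts. The labels do not say which of 2 experiments a sample came from, so no value within an experiment could be given.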

Additional observations from a re-analysis of the deposited data

Results flagged for a closer look

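Of 84 groups of 4 samples examined (normalised counts of each named gene and complex scores, by genotype), 2 held a sample far from the other 3 by Dixon's criterion, where chance gives about 1 group in 20. WT sample 1 was the lowest for Sdhd at 8745 normalised counts, with the other WT samples at 9614 to 9708. CD1d-KO sample 4 was the lowest for Tfam at 3084, with the other CD1d-KO samples at 3317 to 3360.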

How the results depend on the processing

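No OXPHOS gene was called higher under any of the 17 alternatives. The number called lower was 0 with all samples, 1 with TMM factors, 2 with library totals or the low-count filter, 0 with edgeR, with the other size factors, without independent filtering, without the Y-linked samples and with the gastric score, and 0 to 6 when 1 sample was left out (6 without CD1d-KO sample 3, 3 without CD1d-KO sample 4, and 1 without WT sample 1 or 3). All genes called, 622 at first, numbered 228 by edgeR, 372 without the Y-linked samples, 102 with the gastric score and 323 to 646 with a sample left out (323 without CD1d-KO sample 2, 406 without WT sample 1 and 385 without WT sample 2). Wider pathway genes called, 8 at first, numbered 1, 2 and 1 in the same 3 fits and 2 to 8 with a sample left out (5 without CD1d-KO sample 1 or WT sample 1, 2 without CD1d-KO sample 2, 4 without WT sample 2 or 3). The share of all genes called was 4.08% with TMM factors, 3.94% with library totals and 4.57% with the low-count filter. It was 2.65% without WT sample 1 and 2.88% without WT sample 3. Whether the replicate numbers pair the mice is not known. The correlations of deviations for equal numbers were 0.285, 0.025, 0.224 and 0.005. CD1d-KO samples 1 and 3 went best with the WT sample of their own number. CD1d-KO sample 2 went best with WT sample 1 (0.2) and CD1d-KO sample 4 with WT sample 3 (0.354). With the replicate block, 1 OXPHOS gene (Atp5e, -0.31, adjusted p = 0.0232) and 569 genes in all (3.86% of those tested) were called. The median log2 fold change of the 89 OXPHOS genes tested with all samples lay between -0.084 (without CD1d-KO sample 3) and 0.04 (without the Y-linked samples) over the alternatives, and was above 0 with the gastric score too. The sign turned without the Y-linked samples for Uqcrh (0.10), Sdhb (0.09) and Cycs (0.12), and with the gastric score for Sdhd (0.03), Uqcrh (0.10), Cox6b2 (-0.34), Atp5e (0.005), Sdhb (0.08), Cycs (0.17), Nrf1 (-0.03) and Ppargc1a (0.34). With a sample left out, values spanned 0 for Uqcrh (-0.08 to 0.02), Sdhb (-0.06 to 0.03), Ppargc1a (-0.19 to 0.06), Uqcrc2 (-0.0004 to 0.09), Cox6b2 (-0.05 to 0.21), Atp5b (-0.02 to 0.06), Sdhc (-0.04 to 0.05) and Cs (-0.01 to 0.06). The cause was not tested. Isoform shares are the same under either scaling by construction, and a pseudocount of 8 moved no score difference beyond its SD. Only 2 CD1d-KO samples remain without the Y-linked ones, and the gastric score itself differs between the genotypes.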

Other observations

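Other mitochondrial and ribosomal gene groups were read in the same fit. Of 78 genes of the mitochondrial ribosome, which translates the mitochondrially encoded OXPHOS subunits, 0 were called by DESeq2 or edgeR and 6 had an unadjusted p under 0.05 (4 lower and 2 higher), with 44 lower and a median log2 fold change of -0.016. Spearman's rho between exon length and fold change across these 78 genes was 0.32, beside 0.41 for the OXPHOS genes. Of 85 tested genes of the cytosolic ribosome, 1 was called lower (Rps3a1, by both tools), and the median was 0.008. Of 44 tested assembly factors outside the Ndufaf family, such as those that insert copper and haem into complex IV, 0 were called by DESeq2 or edgeR and 3 had an unadjusted p under 0.05, with a median of -0.007.

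The motif letters AANATGGC (YY1) were found in the windows of 12 of 32 complex I genes (37.5%) and 21 of 69 mitochondrial ribosome genes (30.4%), beside 1 of 10 complex IV genes and 0 of 5 complex III genes. The NRF1 letters were found in 2 of 32, 7 of 69, 1 of 10 and 2 of 5 of these groups. For the GABPA letters these counts were 1 of 32, 12 of 69, 1 of 10 and 2 of 5. These are matches of letters, and no test was run on them.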
